A study of Mus musculus with 15 samples.

Results

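Vat1, Wdr6 and Tppp3 are 3 genes whose thalamic RNA followed that of Maged1 from group to group, and each was set against Maged1 library by library. They are 3 of the 13471 genes that passed the filter on low values, out of 25080 listed, and all 3 passed it in every group. They were chosen for small p-values in the comparison of Maged1-cKO with control mice after saline, or for the interaction of genotype with treatment, in these same libraries. The differences between the groups are therefore given as descriptions with no test. The deviations of single libraries from their own group entered the choice only through their size, which is part of a p-value. Their relation to Maged1 and to each other was not used, and this relation is tested.

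RNA was sequenced from microdissected thalamus, in 14 of 15 samples: 4 control and 4 cKO after saline, 4 control and 2 cKO after cocaine, with the remaining cKO cocaine sample not analysed here. The cKO mice carried floxed Maged1 and a Cre recombinase under the Vglut2 promoter, which is active in glutamatergic neurons of the thalamus and leaves Maged1 intact in other cells. Controls are floxed littermates without Cre in the study's animal methods and figure legend, but WT in its RNA methods and the sample titles. Mice were hemizygous males of 2 to 4 months on a C57Bl6J background. With floxed controls, 1 floxed allele on the X chromosome was present in both genotypes. They received saline for 3 days and then cocaine at 20 mg/kg, or saline again, for 5 days. For 4 of the saline libraries a genotype tag names the other genotype than the title, and the titles were followed. Values are TPM (the share of a library's transcripts, already divided by transcript length), scaled between libraries by TMM, a trimmed mean of log ratios. The depth behind them is unknown from TPM.

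Maged1 encodes a MAGE family adaptor protein that binds ubiquitin ligases and other partners in neurons. Vat1 is a cytosolic oxidoreductase first found on synaptic vesicles and known to restrain the fusion of mitochondria. Wdr6 is a WD repeat protein that partners the methyltransferase Ftsj1 in modifying the anticodon loop of transfer RNAs. Tppp3 binds tubulin and bundles microtubules and is abundant in cells with motile cilia.

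Maged1, the targeted gene, was near 150 TPM in control saline libraries, at 153.1, 167.3, 150.0 and 151.3 scaled TPM. In cKO saline libraries it was 77.4, 76.6, 68.2 and 64.6. The 4 labelled control cocaine held 58.6, 87.6, 77.3 and 70.7, while the 2 labelled cKO cocaine held 153.8 and 174.0. The level thus went with the title after saline and against it after cocaine, where the libraries labelled cKO held the higher values. On the log2 scale Maged1 was lower in cKO after saline by -1.11 (SE 0.10, adjusted p = 0.00113, limma) and after cocaine exceeded control in the pair labelled cKO by 1.16 (SE 0.13, adjusted p = 0.00347, limma). Without the second of these cKO cocaine libraries the latter was 1.08 (adjusted p = 0.0814, limma). Each direction below that involves a cocaine library rests on these labels. Thalamic neuron genes were abundant in every library, with a summed level over 9 genes of 493.1 to 732.1 scaled TPM. Single genes of that list were less even between groups, as Calb2, the calcium-binding protein calretinin, had an interaction of genotype with treatment of 1.64 (SE 0.33, adjusted p = 0.0395, limma) and was also among the genes that separate the libraries as Maged1 does. Those of Gbx2, Rora and Prkcd were 1.12, -0.71 and -0.88 (adjusted p = 0.0841, 0.0825 and 0.101, limma). In bulk tissue fewer cells of a type and less RNA per cell cannot be told apart.

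Vat1 lies on chromosome 11 from 101458745 to 101466230 (GRCm38, minus strand, 6 exons) and overlaps Rnd2 on the opposite strand by 1232 bases. It was 37.98, 42.3, 35.8 and 34.4 scaled TPM in control saline and 22.8, 23.5, 26.7 and 23.4 in cKO saline. The libraries labelled control cocaine had 30.6, 32.1, 26.2 and 27.7, and those labelled cKO cocaine 35.3 and 34.7. All 6 libraries of control saline and cKO cocaine were above all 8 of the other groups, while control saline overlapped with cKO cocaine and control cocaine with cKO saline. The margin was narrow, with the lowest of the 6 at 34.4 and the highest of the 8 at 32.1. Group means fell in the order control saline (37.6 ± 3.44, SD, n = 4), cKO cocaine (35.01 ± 0.389, n = 2), control cocaine (29.2 ± 2.69, n = 4) and cKO saline (24.1 ± 1.78, n = 4).

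Wdr6 lies on chromosome 9 from 108572311 to 108578739 (minus strand, 6 exons) and overlaps Dalrd3 on the opposite strand by 464 bases. It was 75.4, 83.4, 75.1 and 69.8 scaled TPM in control saline and 47.0, 50.1, 56.9 and 44.5 in cKO saline. The group labelled control cocaine held 59.3, 56.3, 52.4 and 56.8, and the pair labelled cKO cocaine 64.2 and 70.8. The order of the groups was that of Vat1, with means of 75.9 ± 5.58, 67.5 ± 4.69, 56.2 ± 2.85 and 49.6 ± 5.35. The same 6 libraries were above the same 8, with overlap inside each set and a margin between 64.2 and 59.3 TPM.

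Tppp3 lies on chromosome 8 from 105467493 to 105471526 (minus strand, 4 exons in the longest transcript) and overlaps no other annotated gene. In control saline it was nearly the same in every mouse, at 41.2, 41.5, 41.2 and 41.2 scaled TPM, a coefficient of variation of 0.328%. In cKO saline it was 27.4, 31.1, 31.4 and 32.2, while the group labelled control cocaine held 30.02, 30.9, 34.4 and 30.1 and the pair labelled cKO cocaine 45.8 and 41.1. Here too the 6 were above the 8, from 41.1 upwards against 34.4 and below. Unlike in Vat1 and Wdr6, the highest group mean was that of cKO cocaine (43.4 ± 3.29, n = 2), next to control saline (41.3 ± 0.136, n = 4), but these groups overlapped, as did control cocaine (31.4 ± 2.05) and cKO saline (30.5 ± 2.15).

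**Figure D1:**
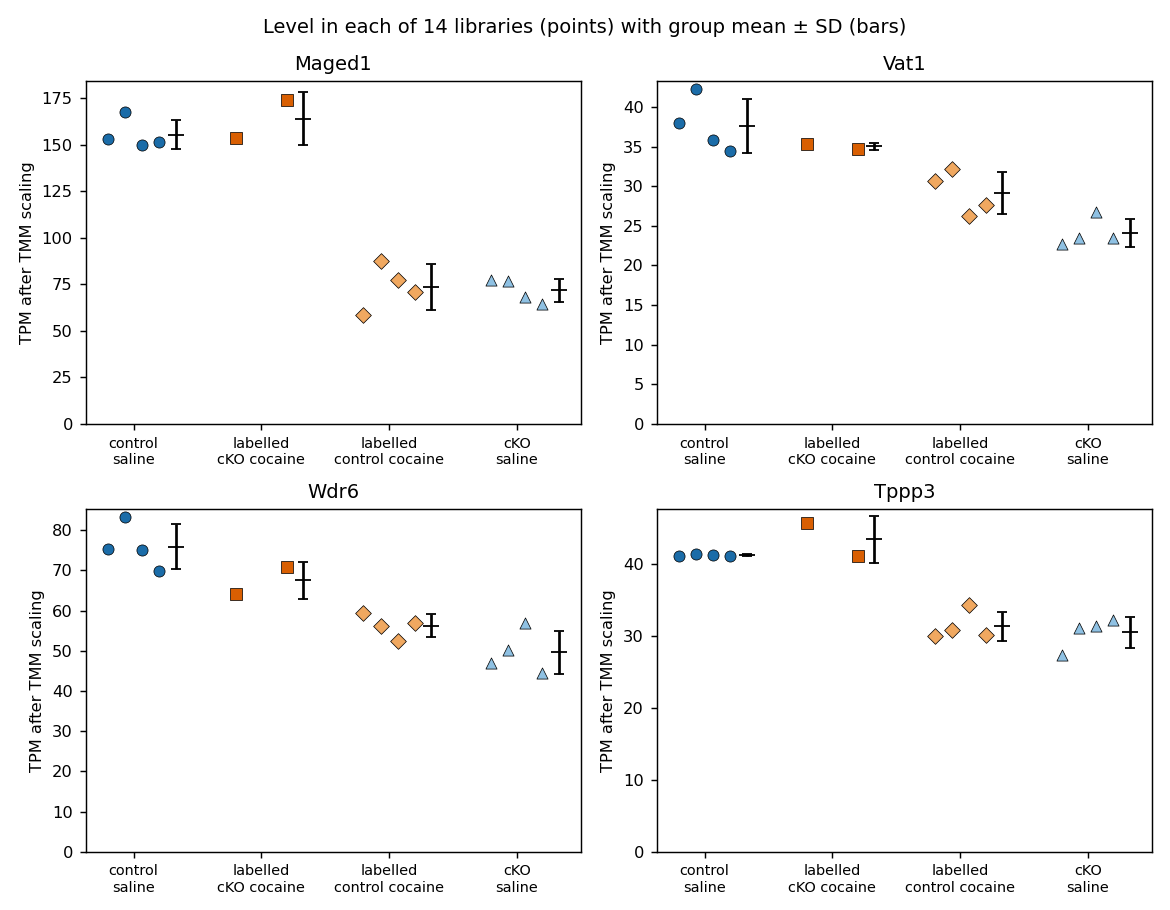
Each point is the level of a gene in 1 library, in TMM-scaled TPM on axes that start at 0, and the bars give the group mean ± SD (n = 4, 2, 4 and 4 from left to right). In all 4 panels the control saline and labelled cKO cocaine libraries lie above the labelled control cocaine and cKO saline libraries, with Maged1 split between 150.0 and 87.6 and Vat1 only between 34.4 and 32.1.

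Over all genes tested, 62 (0.46%) had all of these 6 libraries above all of these 8, and 43 (0.319%) had them all below. All 3 members are among the 62, which the choice by the interaction favours, so nothing is read from that share. On the log2 scale the gap between the lowest of the 6 and the highest of the 8 was 0.77 for Maged1, 0.25 for Tppp3, 0.11 for Wdr6 and 0.097 for Vat1. Ranked by this gap Maged1 was first of 13471 genes, Tppp3 was 2nd, Wdr6 16th and Vat1 22nd.

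The separation of 6 from 8 rests on the scaling in the 3 members and not in Maged1. As deposited, the median gene was lower after cocaine by -0.34 in control and by -0.35 in cKO mice on the log2 scale, and TMM scaling removes this shift. In the TPM as deposited the lowest of the 6 and the highest of the 8 were 28.0 and 32.5 for Vat1, 57.2 and 69.2 for Wdr6, and 33.2 and 38.2 for Tppp3, so that each overlapped. For Maged1 they were 140.4 and 89.4. Inside 1 treatment the deposited values still separated. After saline every control library was above every cKO library in all 3 genes, as in 2.92% of genes tested. After cocaine the 2 libraries labelled cKO were above the 4 labelled control in Wdr6 and Tppp3, as in 6.42% of genes, whereas Vat1 overlapped, with 28.0 in 1 library labelled cKO against 28.1 in 1 labelled control.

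The differences between groups were of like size in the 3 genes and smaller than those of Maged1. After saline, cKO minus control was -0.63 (SE 0.08) on the log2 scale for Vat1, -0.61 (SE 0.07) for Wdr6 and -0.43 (SE 0.06) for Tppp3. After cocaine the libraries labelled cKO were higher by 0.26 (SE 0.09) in Vat1, 0.26 (SE 0.09) in Wdr6 and 0.46 (SE 0.07) in Tppp3. Tppp3 therefore had differences of about equal size and opposite sign in the 2 treatments, and those of Vat1 and Wdr6 after cocaine were less than those after saline.

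Within the mice labelled control, cocaine minus saline was -0.36 for Vat1, -0.43 for Wdr6 and -0.39 for Tppp3. Within those labelled cKO it was 0.53 for Vat1, 0.44 for Wdr6 and 0.50 for Tppp3. These values depend on the scaling. As deposited they were -0.73, -0.80 and -0.76 in control and 0.15, 0.05 and 0.11 in cKO, and relative to the shift of the median gene they kept their signs. The interaction, in which that shift nearly cancels, was 0.89 (SE 0.12) for Vat1, 0.87 (SE 0.12) for Wdr6 and 0.90 (SE 0.09) for Tppp3, against 2.28 (SE 0.16, adjusted p = 5.38e-05, limma) for Maged1. The choice of the 3 genes used this contrast. With genotype taken from the tag in place of the title the interactions were 0.30, 0.30 and 0.40 and that of Maged1 was 1.31 (adjusted p = 0.778, limma).

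Across the groups, each log2 step of mean Maged1 went with a step of 0.42 (SE 0.07) in Vat1, 0.41 (SE 0.07) in Wdr6 and 0.39 (SE 0.04) in Tppp3, from a fit with treatment as a further term. The slopes describe the 4 group means that the genes were chosen on. In the plot of each gene against Maged1 the libraries form a low and a high cloud, so no correlation over all 14 is given.

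**Figure D2:**
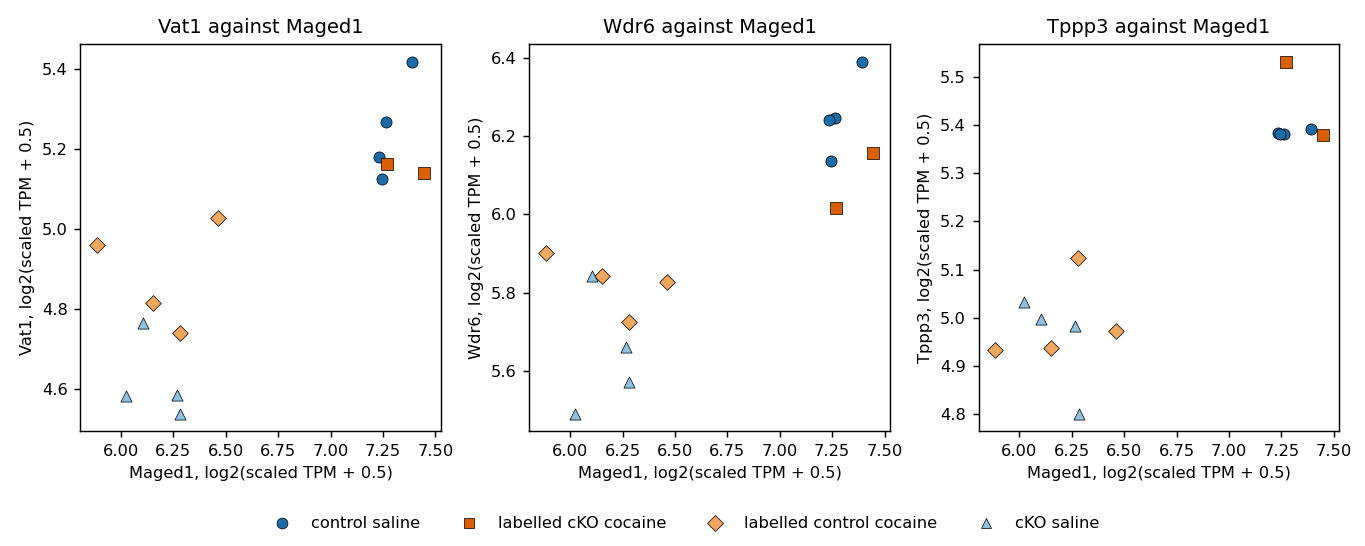
Each point is 1 library, with the log2(scaled TPM + 0.5) of Maged1 on the horizontal axis and that of Vat1, Wdr6 or Tppp3 on the vertical axis. The 6 libraries of control saline and labelled cKO cocaine form the upper right cloud and the other 8 the lower left, with a gap of 0.77 along the Maged1 axis.

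Inside the groups, the question was whether a mouse with more Maged1 than others of its group also had more of the 3 RNAs. The single libraries gave no such order. Among the libraries labelled control cocaine, where Maged1 varied most, the one with the least Maged1 (58.6) had the second highest Vat1 (30.6) and the highest Wdr6 (59.3), while the one with the most Maged1 (87.6) had the highest Vat1 (32.1) and the third highest Wdr6 (56.3). In cKO saline the order of Tppp3 over the 4 mice was the reverse of that of Maged1, from 27.4 where Maged1 was 77.4 to 32.2 where it was 64.6. In control saline 1 mouse, replicate 2, was the highest in all 4 genes.

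The within-group slope of log2 level on log2 Maged1, fitted for all genes at once, was 0.05 (95% interval -0.43 to 0.52, adjusted p = 0.948, limma) for Vat1. It was 0.0076 (-0.46 to 0.48, adjusted p = 0.992, limma) for Wdr6 and -0.06 (-0.41 to 0.30, adjusted p = 0.914, limma) for Tppp3. The intervals of Vat1 and Wdr6 include the slopes of 0.42 and 0.41 seen between groups, so these libraries could not tell a slope of that size inside groups from no slope. The interval of Tppp3 ends at 0.30 in this setting, below its between-group slope of 0.39. The SE of its within-group slope was 0.16 here, 0.20 in the TPM as deposited (slope 0.11) and 0.23 with the replicate number as a block (slope -0.08). The slope of 0.39 describes group means the gene was chosen on, so nothing is concluded from this limit. Leaving out 1 library at a time moved the slope of Vat1 between -0.24 and 0.34, that of Wdr6 between -0.12 and 0.27 and that of Tppp3 between -0.31 and 0.04. The outer values 0.34, 0.27 and -0.31 came without control cocaine replicate 1, the library with the least Maged1.

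As correlations of deviations from the group means over the 14 libraries, Pearson's r with Maged1 was 0.067 for Vat1 (exact permutation within groups, two-sided p = 0.875, adjusted 0.999 over 12 relations). It was 0.011 for Wdr6 (exact permutation p = 0.968, adjusted 0.999) and -0.109 for Tppp3 (exact permutation p = 0.771, adjusted 0.999). Spearman's rho was -0.0066, 0.081 and -0.31 (exact permutation p = 0.988, 0.809 and 0.40, each adjusted to 0.988). These lie in the middle of all genes, where the quartiles of this r were -0.304 and 0.304. Without the 2 libraries farthest from the median Maged1 deviation, control cocaine replicates 1 and 2, r was -0.020, 0.249 and -0.373. Inside the 6 libraries with high Maged1, r of the log2 levels, not of deviations, was 0.286 for Vat1, 0.277 for Wdr6 and -0.204 for Tppp3. Inside the 8 with low Maged1 it was 0.0091, -0.114 and 0.00093. Exact permutation over the libraries of each set gave p between 0.547 and 0.999 for these 6 values. Each set holds 2 groups, so differences between group means enter these values, which are not relations inside groups. Spearman's rho in these sets lay between -0.333 and 0.0857, with exact permutation p between 0.428 and 0.935.

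The spread available inside groups was small. The within-group SD of log2 Maged1 was 0.16, while the 6 libraries were on average 1.13 above the 8. The within-group SD was 0.11 for Vat1, 0.11 for Wdr6 and 0.08 for Tppp3, against a median of 0.11 over all genes.

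**Figure D3:**
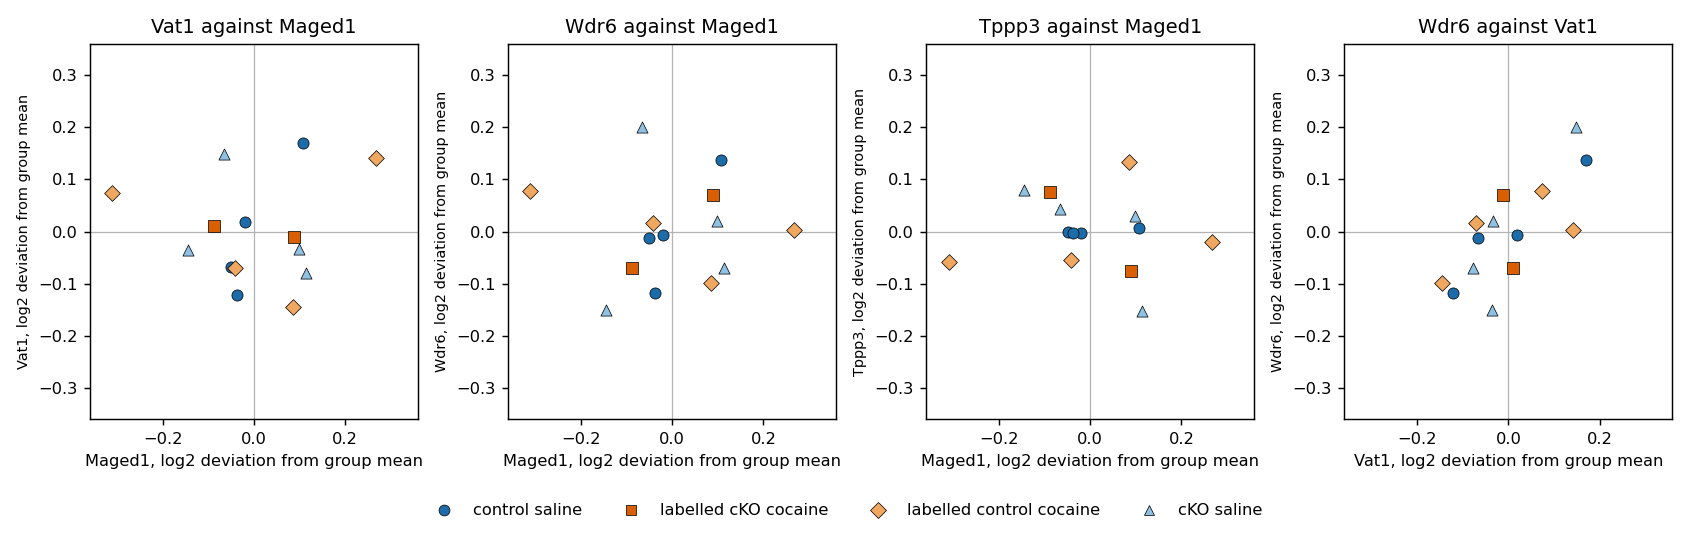
Each point is 1 library, placed by the log2 deviation of 2 genes from their own group means, with the same range on all axes. The first 3 panels set Vat1, Wdr6 and Tppp3 against Maged1 (r = 0.067, 0.011 and -0.109), and the last sets Wdr6 against Vat1 (r = 0.745).

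Vat1 and Wdr6 deviated in the same direction in most libraries, short of the threshold after adjustment and in a relation that was not among those planned. Their within-group r was 0.745 (exact permutation p = 0.00561, adjusted 0.0673 over the 12 relations) and rho was 0.741 (exact permutation p = 0.00488, adjusted 0.0586). In the TPM as deposited r was 0.867, a value that also holds what all genes of a library share before scaling. In the scaled values the log2 TMM factor still had a within-group r of 0.436 with Vat1 and 0.350 with Wdr6, and its part in the relation was not tested. Without the 2 libraries farthest in Wdr6, cKO saline replicates 3 and 4, r was 0.733, and it was between 0.652 and 0.830 with 1 library left out. Among the 13470 genes other than Vat1, Wdr6 was 58th in within-group r with it, where the 99th percentile was 0.690. Tppp3 did not share this: its r was -0.050 with Vat1 and -0.215 with Wdr6 (exact permutation p = 0.883 and 0.568).

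Vat1 and Wdr6 were also each other's nearest profile. Over the 14 libraries, centred per gene on the log2 scale, their root mean square difference was 0.079, the smallest of 13470 genes from either side, where the profiles themselves had a root mean square of 0.270 and 0.264. The groups take part in this measure, so it is a description. Next to Vat1 came Pnck (0.109), a calmodulin dependent kinase, and Bex1 (0.116), and next to Wdr6 came Ly6h (0.105) and Sgsm1 (0.116). The nearest to Tppp3 were Lhfpl5 (0.095), Dusp28 (0.108) and Mgst1 (0.113), a membrane glutathione transferase. Of these, Pnck, Ly6h, Sgsm1, Lhfpl5 and Mgst1 also had the 6 libraries above the 8. Among the nearest to Maged1 itself were Rab3b (0.291), a vesicle GTPase, Galr1 (0.292), a galanin receptor, and Rxrg (0.318) and Vwa5b1 (0.324). Their mean levels were low, at 3.03, 1.86, 1.47 and 3.43 scaled TPM against 109.3 for Maged1, and Rxrg did not separate the 6 from the 8. Maged1 itself had a root mean square of 0.574, and Tppp3, Wdr6 and Vat1 were at 22nd, 26th and 27th place at 0.377, 0.379 and 0.381.

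Because Vat1 and Wdr6 had mutually nearest profiles, their promoters are shown beside that of Maged1, from 250 bases before to 50 after the start of the gene (RefSeq, GRCm38.p6, minus strand, written 5′ to 3′ along the gene). They span chr11:101466150-101466449 for Vat1, chr9:108578664-108578963 for Wdr6 and chrX:94541976-94542275 for Maged1. Capitals mark matches on either strand to GGGCGG (the GC box), CCAAT or TGACG (the core of the cAMP response element).
Vat1: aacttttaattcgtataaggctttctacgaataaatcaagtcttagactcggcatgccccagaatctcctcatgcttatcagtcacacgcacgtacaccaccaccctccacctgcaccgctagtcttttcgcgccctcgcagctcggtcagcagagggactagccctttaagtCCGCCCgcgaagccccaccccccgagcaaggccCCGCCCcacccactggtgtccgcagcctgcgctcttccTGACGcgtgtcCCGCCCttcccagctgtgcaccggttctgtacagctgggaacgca
Wdr6: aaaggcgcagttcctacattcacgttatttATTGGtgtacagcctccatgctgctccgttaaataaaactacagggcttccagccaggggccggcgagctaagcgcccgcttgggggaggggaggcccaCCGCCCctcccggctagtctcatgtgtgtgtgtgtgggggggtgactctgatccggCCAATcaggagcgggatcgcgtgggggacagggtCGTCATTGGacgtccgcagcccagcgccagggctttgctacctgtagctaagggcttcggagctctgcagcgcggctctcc
Maged1: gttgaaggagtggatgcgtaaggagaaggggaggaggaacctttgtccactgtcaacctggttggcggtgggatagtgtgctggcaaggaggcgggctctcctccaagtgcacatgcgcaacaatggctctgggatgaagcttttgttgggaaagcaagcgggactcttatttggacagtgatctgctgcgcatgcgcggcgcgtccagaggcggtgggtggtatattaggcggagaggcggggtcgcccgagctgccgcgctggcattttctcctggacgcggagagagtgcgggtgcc
Vat1 held 3 matches to GGGCGG and 1 to TGACG, and Wdr6 held 1 to GGGCGG, 3 to CCAAT and 1 to TGACG, the last overlapping a CCAAT match. The stretch of Maged1 held none of the 3, and CACGTG was in none of these promoters. Of 27025 mouse promoters of this length, 35.9% held GGGCGG, 37.9% CCAAT, 21.0% TGACG and 7.24% CACGTG. The matches are letters in a window and were not related to binding.

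The genes beside the members on the chromosome were examined in the same way. Of the 3 nearest tested genes on each side of each member, 18 in all, none had the 6 libraries above the 8. None passed an adjusted p of 0.05 for the interaction (limma). Over all genes 0.46% had that separation and 1.28% passed for the interaction in either direction, so nothing is read from these counts. Rnd2, a small GTPase whose gene overlaps Vat1, had an interaction of 0.20 (SE 0.11, adjusted p = 0.372, limma), and Dalrd3, which overlaps Wdr6, one of 0.19 (SE 0.08, adjusted p = 0.243, limma). The libraries were made with a strand-specific kit, but whether the quantification used the strand is not given in the sources used here. P4htm, next to Wdr6, passed after saline with -0.18 (SE 0.03, adjusted p = 0.0445, limma). Lrrc36, next to Tppp3 and at only 0.87 scaled TPM on average, had an interaction of 1.501 (SE 0.50, adjusted p = 0.134, limma), the largest of the 18 on the positive side, and its libraries overlapped.

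**Figure D4:**
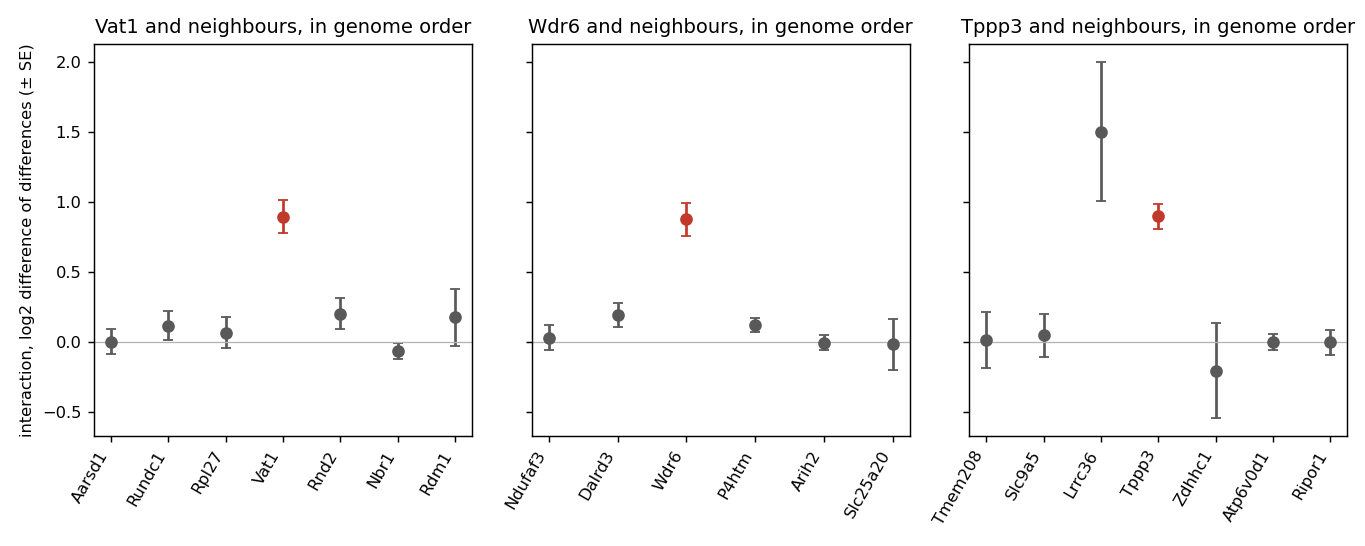
The points give the interaction (the log2 cocaine effect in the libraries labelled cKO minus that in those labelled control) with its SE, for each member in red and its nearest tested genes in grey, in the order of the chromosome and not to scale. The members lie near 0.9 and their neighbours between -0.20 and 0.20, except Lrrc36 at 1.501, with Mir425 beside Wdr6 left out because it was listed at 0 in most libraries.

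Relatives and partners of the 3 genes were counted from fixed lists by an adjusted p under 0.05 alone (limma), which 0.178% of all genes passed for genotype after saline, 0.0594% after cocaine and 1.28% for the interaction. Tppp, the paralog of Tppp3, was 0.17 higher in cKO after saline (SE 0.06, adjusted p = 0.189, limma) and its interaction was -0.25 (SE 0.09, adjusted p = 0.184, limma), both of the opposite sign to Tppp3. Of 7 tested relatives of Vat1 in the quinone oxidoreductase family, 0 passed for genotype in either treatment or for the interaction (limma). The closest in name, Vat1l, had -0.44 after saline (SE 0.16, adjusted p = 0.198, limma) and an interaction of 0.63 (SE 0.26, adjusted p = 0.215, limma). The mitochondrial fusion and fission genes Mfn1, Mfn2, Opa1 and Dnm1l gave 0 of 4 in these contrasts, with differences after saline from -0.02 to 0.11.

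Among 22 tested genes of transfer RNA anticodon modification 0 passed for genotype or interaction. Ftsj1, the catalytic partner of Wdr6, differed by 0.06 (SE 0.05) after saline and its interaction was -0.04 (SE 0.08). Of 23 tubulins and other microtubule genes, 0 passed for genotype or interaction, and 7 in control and 11 in cKO mice were higher after cocaine than after saline, against 14.2% and 10.3% of all genes, while Tppp3 had lower levels after cocaine in control. Stmn4, a tubulin-binding stathmin, rose by 0.66 in control (SE 0.06, adjusted p = 4.13e-05, limma), and Tubb4a rose by 0.50 (adjusted p = 0.000843, limma). The median difference of these 23 in control was 0.13, against 0.0010 over all genes.

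Markers of other cell types stood at unequal levels in these libraries. All 13 tested genes of a list of 15 for ependymal cells and motile cilia were lower in cKO after saline (median -0.85) and, after cocaine, higher in the pair labelled cKO than in control (median 0.77), and 0 of 13 passed in either (limma). The interaction was above 0 in all 13 (median 1.59, 0 passed), the sign of the 3 members. In control all 13 were lower after cocaine than after saline, and 2 passed, as did 10.2% of all genes. In cKO all 13 were higher, and 1 passed, as did 10.3% of all genes. The summed level of the 13 was 39.1 to 46.5 scaled TPM in control saline and 34.4 to 47.6 in cKO cocaine. It was 5.60 to 40.1 in control cocaine and 6.24 to 27.4 in cKO saline, and Cfap126 was at 0 in every library. Control cocaine replicate 1 had a sum of 40.1 and Tppp3 at 30.02. The library cKO saline replicate 1 had a sum of 6.24 and Tppp3 at 27.4, its lowest level. Inside groups, the mean log2 level of the list had an r of 0.535 with Tppp3, 0.347 with Vat1, 0.054 with Wdr6 and -0.301 with Maged1. The part of ciliated cells in the level of Tppp3 was not tested.

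Deviations of Maged1 inside groups were set against those of marker lists of other regions and cells, as a description over 14 libraries with no test. The mean log2 level of 10 tested hypothalamic genes, of 14 listed, had a within-group r of 0.868 with Maged1, while it was 0.162 with Vat1, 0.102 with Wdr6 and -0.080 with Tppp3. For 5 genes of inhibitory neurons it was 0.809 with Maged1, -0.245 with Vat1, -0.275 with Wdr6 and 0.065 with Tppp3. The r with Maged1 was -0.451 for 7 habenula genes, -0.0076 for 6 genes of striatum, cortex and hippocampus and -0.514 for the 9 thalamic neuron genes. The summed hypothalamic level was 138.9 to 477.4 scaled TPM in control saline, 12.7 to 155.2 in cKO saline, 7.71 to 146.5 in control cocaine and 41.2 to 78.4 in cKO cocaine. All 10 genes were lower in cKO after saline (median -1.11), and of these Oxt, the oxytocin gene, passed (-5.07, adjusted p = 0.0177, limma). After cocaine in control mice 5 of the 10, Oxt, Avp, Trh, Gal and Otp, were lower by an adjusted p under 0.05, as were 10.2% of all genes. Between genotypes after cocaine, 6 of the 10 were higher in the pair labelled cKO and 4 lower (median 0.23, 0 passed), while the 3 members were all higher. For the interaction 4 of the 10 passed on the higher side, the sign of the 3 members. The list median was 1.61, and 1.28% of all genes passed in either direction. Those 4 are named next. They were Oxt (10.41, adjusted p = 0.00302), the vasopressin gene Avp (4.69, adjusted p = 0.0483), Trh (2.23, adjusted p = 0.0459) and the galanin gene Gal (1.88, adjusted p = 0.0395), all by limma. Oxt was at a mean of 0.058 scaled TPM in the libraries labelled control cocaine, so the size of its difference depends on the pseudocount. In other lists the astrocyte gene Slc1a3 passed for the interaction with 0.41 (adjusted p = 0.0431, limma) and the synaptic vesicle gene Syt1 with -0.44 (adjusted p = 0.0279, limma). Of the 7 astrocyte genes 3 were higher and 4 lower in this contrast (median -0.017). Of 8 general neuronal genes, Syt1 among them, all 8 were lower (median -0.23). Among 7 habenula genes all were lower in cKO after saline (median -1.22, 0 passed), and among 9 oligodendrocyte genes all were higher (median 0.45, 0 passed). After cocaine, in the pair labelled cKO, 4 habenula genes were higher and 3 lower (median 0.026, 0 passed). Of the oligodendrocyte genes 1 was higher and 8 lower there (median -0.10, 0 passed). The part of these tissues in the differences of the members was not tested.

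**Figure D5:**
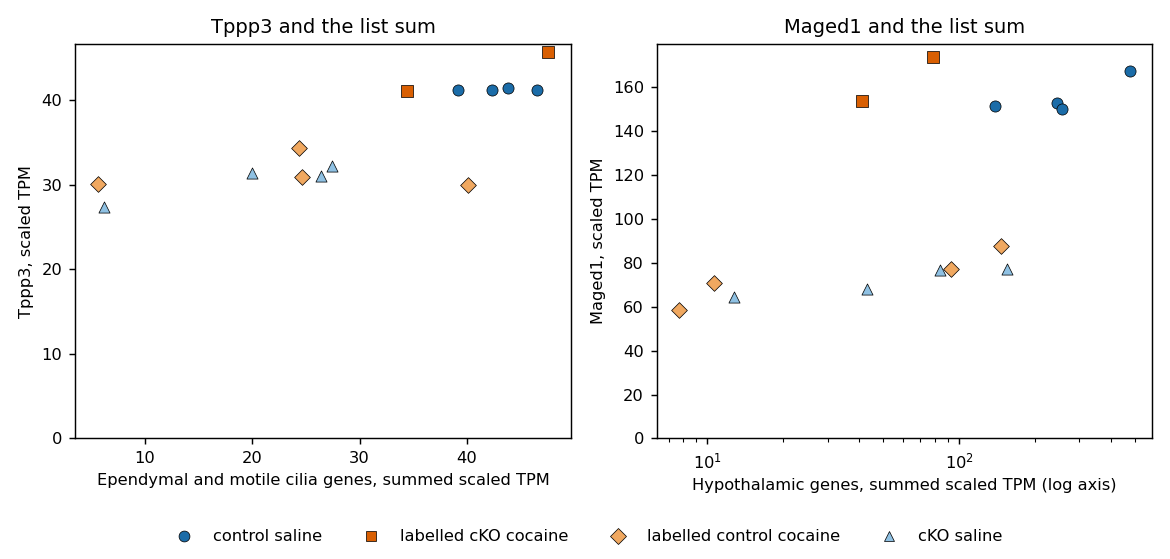
The left panel sets Tppp3 against the summed level of 13 ependymal and motile cilia genes, and the right panel sets Maged1 against that of 10 hypothalamic genes on a log axis, with 1 point per library in scaled TPM. The cilia sums run from 39.1 to 46.5 in control saline and from 5.60 to 40.1 in control cocaine, and the hypothalamic sums from 138.9 to 477.4 in control saline and from 41.2 to 78.4 in the labelled cKO cocaine libraries.

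The slope on Maged1 inside groups was fitted for all genes. Over 13470 genes, 16 (0.119%) had a within-group slope with an adjusted p under 0.05 (limma), and 14.1% had an unadjusted p under 0.05. The 3 with the smallest p were Nek7, a NIMA-related kinase, with a slope of -1.12 (SE 0.12, adjusted p = 0.00946, limma), Limk1, a kinase of the actin cytoskeleton, with 1.25 (SE 0.15, adjusted p = 0.0235, limma), and Ecel1, a neuronal endopeptidase-like gene, with 3.66 (SE 0.49, adjusted p = 0.0268, limma). The count was 0 without control cocaine replicate 1, where 1046 genes had an unadjusted p under 0.05 (limma). It was 1 without control saline replicate 2 or cKO saline replicate 1, and 2 without control cocaine replicate 2 or 3. It was 5, 10 and 8 without cKO saline replicates 2, 3 and 4, and 51, 52 and 67 without cKO cocaine replicate 1, cKO cocaine replicate 2 and control cocaine replicate 4. None of Vat1, Wdr6 and Tppp3 was among the 16.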

How the data were processed

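RNA of microdissected mouse thalamus was sequenced by the study after ribosomal RNA depletion. According to the study's methods, reads were mapped to GRCm38.p4 with STAR 2.5.3a and quantified with Salmon, and the authors summarised transcripts to genes and deposited 1 table of TPM per library. In 2 tables the deposited TPM had a decimal comma (a unit recorded as other), which was read as a point. TPM keep no depth, so counting error is unknown.

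Groups follow the titles. TPM were scaled by unweighted TMM factors (30% and 5% trims), 0.5 was added and log2 taken, and genes that reached 1 TPM in 3 or more libraries were fitted with limma 3.58.1 in R 4.3.3 (4 group means, intensity trend, Benjamini-Hochberg adjustment). The count model of the study could not be used on TPM. For within-group slopes, Maged1 centred on its group mean was added. Correlations used exact permutation within groups (27648 arrangements) or over the libraries of a set, in Python 3.11.15 with scipy 1.17.1. Whether samples are separate animals follows the study's statement that replicates were independent. Same-numbered libraries of different groups did not deviate together (mean r -0.0138 over 18 pairs), so the numbers were not taken to pair mice.

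Besides the 3 genes and Maged1, the text names the nearest profiles, the nearest tested genes on the chromosome, the 3 genes with the smallest within-group p and members of the fixed lists, of which 1 nearest profile is not reported here. Members, lists and tests were chosen with earlier results of these data known. Annotation is GENCODE M21. Scripts were tested on simulated data. Alternatives were the TPM as deposited, median-of-ratios scaling, pseudocounts of 0.1 and 1, no filter, a mean of at least 5 TPM, no trend, a replicate block, genotype from the tag and leaving out each library. Added after seeing the data were the saline libraries alone, the cocaine libraries alone and the 10 libraries whose labels agree. The correlations of the 3 genes with each other were not among the planned relations either.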

Additional observations from a re-analysis of the deposited data

Results flagged for a closer look

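The cocaine effect in the libraries labelled cKO differed from that in those labelled control by 2.28 on the log2 scale for Maged1 (adjusted p = 5.38e-05, limma). For Vat1 this difference was 0.89, for Wdr6 0.87 and for Tppp3 0.90, values on which these genes were chosen and for which no test is given. In scaled TPM of all 4 genes, each library labelled cKO cocaine lay above each cKO saline library. Each library labelled control cocaine lay below each control saline library. Both follow from the separation of the 6 libraries from the 8, which 0.46% of genes had and which the choice favours. As deposited, the cKO part held in Maged1 but not in the 3 members. There the lowest cKO cocaine and highest cKO saline values were 28.0 and 32.5 for Vat1. They were 57.2 and 69.2 for Wdr6, and 33.2 and 38.2 for Tppp3.

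The summed level of 4 choroid plexus genes was 1437 scaled TPM in control saline replicate 1, far from the other libraries of its group, which reached down to 15.9. It was the only sample that stood apart in this way among 24 sets of 4 libraries examined for the 4 genes and 4 marker lists. Chance gives about 1 in 20 sets, so 1 among 24 is near what chance gives. Tppp3 in that library was 41.2, the same as in 2 others of its group to 3 digits, and Vat1 was 37.98 and Wdr6 75.4, both second in their group.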

How the results depend on the processing

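The differences between groups kept their direction in Maged1, Vat1, Wdr6 and Tppp3 under every alternative except the genotype tag. Under the tag the cKO minus control difference after saline was -0.149 for Maged1, -0.0385 for Vat1, -0.0396 for Wdr6 and 0.0595 for Tppp3, which reversed, and the interactions were 1.31, 0.302, 0.302 and 0.405. The tag groups mix libraries of both Maged1 ranges, so their within-group slopes, 0.521, 0.503 and 0.358 for Vat1, Wdr6 and Tppp3, with r = 0.891, 0.883 and 0.893, restate the separation that the genes were chosen on and test nothing. With the 10 libraries whose labels agree, a setting chosen after seeing the data, Maged1 after saline was -1.25 (adjusted p = 0.215, limma), the Tppp3 slope was 0.0601 and its r 0.141, and r of Vat1 with Wdr6 was 0.700 (exact permutation p = 0.0990). In saline libraries only, also added later, the slopes were 0.145, 0.365 and -0.422 (adjusted p = 0.981, 0.947 and 0.843, limma). In cocaine libraries only, added likewise, the slopes of Wdr6 and Tppp3 were -0.108 and 0.0803, their r -0.305 and 0.177, and r of Vat1 with Wdr6 was 0.4999 (exact permutation p = 0.396).

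Of the slopes near 0, that of Wdr6 was -0.0017 under median-of-ratios scaling (r = -0.00242) and -0.0157 with a mean of at least 5 TPM, and that of Tppp3 was 0.110 in the TPM as deposited (r = 0.177). With the replicate number as a block the slopes were -0.327, -0.409 and -0.0808 (adjusted p = 0.659, 0.536 and 0.920, limma) and the interactions 0.845, 0.848 and 0.929, and that of Maged1 was 2.23. The numbers were not taken to pair the mice, and the block changed no call of these. The cause of these moves was not tested. As deposited 0 of the 3 members and 24 genes had the 6 libraries above the 8. The count of such genes was 35 with a mean of at least 5 TPM, where fewer genes were tested, and 125 in the 10 libraries, where fewer samples must separate.

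Leaving out 1 library gave saline differences of -1.15 to -1.07 for Maged1, -0.678 to -0.573 for Vat1, -0.677 to -0.562 for Wdr6 and -0.458 to -0.381 for Tppp3. The interactions were 2.17 to 2.37, 0.838 to 0.946, 0.804 to 0.945 and 0.820 to 0.972. The slopes ran from -0.236 to 0.335, -0.119 to 0.269 and -0.306 to 0.0359, the r with Maged1 from -0.293 to 0.339, -0.183 to 0.278 and -0.434 to 0.0906, and r of Vat1 with Wdr6 from 0.652 to 0.830. All 3 members stayed above in each, with 65 to 135 genes. With 2 libraries labelled cKO cocaine, leaving out 1 assumes that the other varies like the other groups. The 16 genes with a within-group slope past the threshold (limma) became 2 with no filter, 6 with the replicate block, 7 with no trend and 0 in saline libraries, cocaine libraries or the 10, where 883, 933 and 1204 genes had an unadjusted p under 0.05. The study gives an approximate depth for its samples, but that of each library is unknown from TPM. The small spread of Maged1 inside groups limits what the slopes can show.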
